A study of Homo sapiens with 4 samples.

Results

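The genes described here encode the lysosome and the autophagy machinery: 39 genes, chosen by name, of 56832 in the deposited table. They comprise the transcription factors TFEB and TFE3, 16 hydrolases or hydrolase activators, 5 lysosomal membrane proteins, 6 subunits of the proton pump, and 10 autophagy genes. All 39 passed the minimum mean normalised count of 10 over the 4 libraries. TFEB had the lowest mean (247) and the saposin precursor gene PSAP the highest (44824). RNA was sequenced from A375, an established human melanoma cell line labelled as wild type and grown with serum. Cells received 1 mM octanoate, a saturated medium-chain fatty acid, or the isopropanol in which it is dissolved, and were collected after 48 h, with 2 libraries per group. The labels do not say whether the replicates were separate cultures, so the spread between these libraries, on which p-values rest, may be technical. The SE and p-value of a gene draw more on the spread of genes of similar level than on its own libraries. In such bulk RNA, fewer cells of a type and less RNA per cell cannot be told apart.

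Lysosomes are acidic organelles in which hydrolases break down proteins, lipids, glycans and nucleic acids. The vacuolar ATPase pumps protons into them, and heavily glycosylated membrane proteins such as LAMP1 line their inner face. Autophagy delivers cytoplasm to them: a double membrane closes around cargo, with ATG8 proteins (the LC3 and GABARAP families) attached to its lipids, and fuses with the lysosome. TFEB, TFE3 and the melanocyte factor MITF belong to the MiT/TFE family. They bind a shared DNA element with the core CACGTG, often in an extended form called the CLEAR element, near the start sites of many lysosomal genes.

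The libraries held between 67785956 and 78005035 recovered reads. SOX10, a defining gene of melanocytic cells, had between 34072 and 41363 normalised counts, and MITF between 2414 and 3533. The pigment genes MLANA (34.9 to 52.0) and TYR (1.93 to 3.93) were near the floor, so the libraries carry the lineage factors of melanocytes but hardly any pigment transcripts. Among 7 macrophage and leukocyte markers, 4 had a mean under 10. Their summed normalised count was 632 to 697 in vehicle and 775 to 823 in octanoate, almost all of it from the lysozyme gene LYZ, while PTPRC stayed at 10.8 or less. The summed level of 10 melanocyte and melanoma markers was 45251 to 49469 in vehicle and 38766 to 43838 in octanoate. Fibroblast markers summed to 2557 to 2624 and 2244 to 2387, keratinocyte markers to 5683 to 6714 and 4793 to 6447, and endothelial markers to 576 to 580.1 and 787 to 792. Single markers changed under these sums, and not always in the same direction within a list. The melanocytic genes S100B and MITF fell by 54.1% and 28.2%, while PMEL rose by 47.0%. The keratinocyte gene KRT14 fell by 76.4%, but the groups overlapped for KRT10, the source of most of the keratinocyte sum. The fibroblast gene COL1A1 fell by 38.1%, and COL1A2 fell as well. The endothelial genes PECAM1 and VWF rose by 93.7% and 42.5%. The part of other cell types in the results was not tested.

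The DNA element bound by the family is described first, so that members that carry it can be followed in the text. This is an order of presentation only, and the comparison by promoter was made after the members' values were seen. RefSeq promoter windows (GRCh38.p14, 250 bases before to 50 after a gene's start) were matched by symbol for 28 of the 39 genes, using the first listed start of each. The core CACGTG, a palindrome that reads the same on both strands, was found in 8 of the 28 (28.6%) and in 9.86% of 11131 tested genes with a window. Its 8-letter extension TCACGTGA, which contains the core, was found in 5 (17.9%, against 1.81%), and these 8 letters with a G before and a C after in 2 (7.14%, against 0.746%). The stretches that hold the element before the start are shown with it in capitals, each 5′ to 3′ on the strand of the gene. They are the members whose levels are compared by promoter further on, and a match is a description of these letters, not evidence that a factor is bound.
GAA, chr17:80101473-80101542, plus strand: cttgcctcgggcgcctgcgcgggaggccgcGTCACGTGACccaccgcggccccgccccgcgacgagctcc
MCOLN1, chr19:7522578-7522623, plus strand: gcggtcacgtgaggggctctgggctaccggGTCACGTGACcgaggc
LAMP1, chr13:113297180-113297238, plus strand: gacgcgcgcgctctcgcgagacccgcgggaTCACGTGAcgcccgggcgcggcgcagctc
CTSA, chr20:45891299-45891326, plus strand: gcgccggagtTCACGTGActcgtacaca
ATP6V0D1, chr16:67481200-67481227, minus strand: ccccttatggTCACGTGAggcgcttgcg
CTSD, chr11:1763958-1763984, minus strand: cggccgcgccCACGTGAccggtccggg
NEU1, chr6:31862912-31862978, minus strand: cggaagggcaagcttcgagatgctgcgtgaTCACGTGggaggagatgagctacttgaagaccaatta
The element began 16 bases before the start in MCOLN1, 26 in CTSA, 29 in LAMP1, 47 in CTSD, 60 in ATP6V0D1, 78 in GAA and 127 in NEU1. The stretch of MCOLN1 holds TCACGTGA once more, in lower case near its 5′ end. In CD63 only the bare core was present, 180 bases before the start. All these distances are to the first listed RefSeq start. In GENCODE 29 the genes CTSA, CTSD, ATP6V0D1 and CD63 begin farther upstream, and the element lies within their bounds. TGATGCAA, the core recognised by C/EBP-ATF dimers such as those of ATF4, was searched on both strands as well. These letters were in none of the 28 windows and in 0.512% of those of tested genes.

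Under octanoate, transcripts of 4 proton pump genes, of 5 hydrolases and of the membrane proteins LAMP1 and GPNMB were lower, and 3 autophagy genes, TFE3 and the protease gene CTSL were higher. Normalised counts were compared with limma on log2(normalised count + 1), and a gene was called at a Benjamini-Hochberg adjusted p under 0.05 over 20250 tested genes. Of the 39 members, 5 were called higher (12.8%) and 11 lower (28.2%). Over all tested genes 29.9% were called, 16.2% higher and 13.7% lower. Most members are abundant, 37 of them with a mean of at least 1000. Among all tested genes with such a mean, 18.1% were called higher and 20.0% lower. Against either background the members' share called lower was above and their share called higher below. The median log2 difference of the members was -0.09, against 0.0050 over all tested genes and -0.02 over these abundant genes.

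The changes were small. No member changed 2-fold, where 4.21% of all tested genes and 1.10% of those with a mean of 1000 or more were called and at least 2-fold. The log2 differences ran from -0.69 to 0.64, and the median absolute difference was 0.15, against 0.19 over all tested genes and 0.13 over those with a mean of 1000 or more. The groups did not overlap for 34 members (87.2%), against 63.1% of all tested genes and 69.4% of those with a mean of 1000 or more. Both octanoate libraries were above in 13, against 32.6% of all tested genes and 31.2% of the abundant ones. Both were below in 21, against 30.5% and 38.2%. All 16 calls were also made, with the same sign, in the authors' deposited table, in which 12.9% of its 33533 genes passed the same threshold. GC content and length trends were also taken out of the libraries, for the 15141 tested genes found in GENCODE 29. Then 5 members were called higher and 19 lower, beside 2931 and 4003 of all these genes, and 42.3% of all calls were higher. The same genes without this correction gave 6 members higher and 11 lower, beside 2866 and 2575 of all. There 52.7% of all calls were higher, and in the fit of all tested genes 54.1%. The GC content of the members' transcripts had a Pearson r of 0.02 with their log2 difference, a description across 39 genes of the same libraries.

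**Figure D1:**
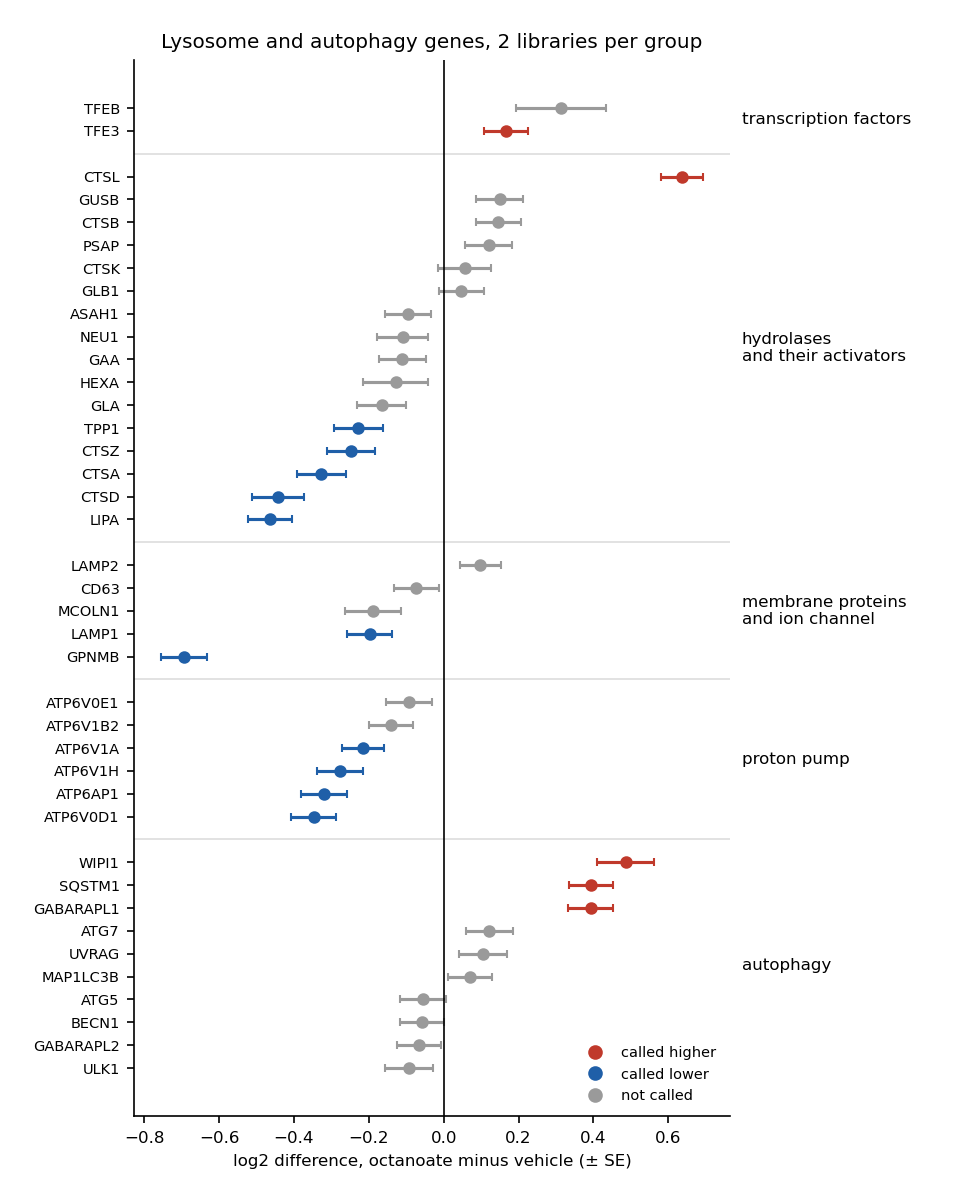
Log2 difference between octanoate and vehicle (x axis) with its standard error for each of the 39 genes, grouped by role, with genes called at a limma adjusted p under 0.05 in colour. All 6 proton pump genes lie left of 0 and the 3 called autophagy genes lie right of it.

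Of the transcription factors, TFE3 had 6758 and 6371 normalised counts in vehicle and 7574 and 7160 in octanoate. Both octanoate libraries were above both vehicle libraries, and TFE3 rose by 12.2% (log2 difference 0.17, SE 0.06, limma adjusted p 0.0346). This call was lost without vehicle 2 (limma adjusted p 0.231) and without octanoate 1 (0.268). TFEB had 212 and 228 normalised counts in vehicle and 286 and 261 in octanoate. The groups did not overlap, but TFEB missed the threshold (log2 difference 0.31, SE 0.12, limma adjusted p 0.0522), and its SE was the largest of the members. Per kilobase of exon TFE3 was far more abundant in vehicle (1533 normalised counts per kilobase) than TFEB (38.9). Their relative MITF, which is no member but shares the DNA element, went the other way: it had 3533 and 3330 normalised counts in vehicle and 2414 and 2511 in octanoate (log2 difference -0.48, SE 0.06, limma adjusted p 2.33e-06).

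Among the 16 hydrolases and activators, 1 was called higher (6.25%) and 5 lower (31.2%), against 18.1% and 20.0% of the abundant genes. Their median log2 difference was -0.11, which was -0.06 without vehicle 1 and -0.17 without vehicle 2. CTSL encodes cathepsin L, a cysteine endoprotease (GRCh38, chromosome 9, 87725519 to 87731393, plus strand). Its normalised counts were 9074 and 8781 in vehicle and 13816 and 13924 in octanoate. Both octanoate libraries stood well above the vehicle libraries, with replicates within a few percent of each other. CTSL rose by 55.4%, the largest rise of the 39 (log2 difference 0.64, SE 0.06, limma adjusted p 3.58e-09). No exon of another gene overlaps it in GENCODE 29.

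LIPA encodes lysosomal acid lipase, which frees fatty acids and cholesterol from lipoprotein-derived lipids (chromosome 10, 89213569 to 89414557, minus strand). It had 6254 and 6169 normalised counts in vehicle and 4573 and 4434 in octanoate. The octanoate libraries were the lower, and LIPA fell by 27.5% (log2 difference -0.46, SE 0.06, limma adjusted p 9.82e-07). CTSD encodes the aspartic protease cathepsin D and had 3573 and 3152 normalised counts in vehicle and 2589 and 2354 in octanoate. It fell by 26.5% (log2 difference -0.44, SE 0.07, limma adjusted p 2.76e-05). Exons of other genes cover 52.7% of its exon bases in GENCODE 29, mostly those of AC068580.4, so its count is uncertain.

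CTSA encodes cathepsin A, a carboxypeptidase that also protects beta-galactosidase and neuraminidase in a complex. Its normalised counts were 5701 and 4916 in vehicle and 4251 and 4189 in octanoate (log2 difference -0.33, SE 0.07, limma adjusted p 0.000480). The vehicle libraries lay farther apart than the octanoate libraries but did not reach them. Other genes, chiefly NEURL2, cover 28.5% of the exon bases of CTSA. CTSZ, which encodes the carboxypeptidase cathepsin Z, had 27629 and 24458 normalised counts in vehicle and 22865 and 20939 in octanoate (log2 difference -0.25, SE 0.06, limma adjusted p 0.00463). Its call was lost without vehicle 1 (limma adjusted p 0.112) and without octanoate 2 (0.0975). TPP1, the tripeptidyl peptidase gene, also fell, with a log2 difference of -0.23 (limma adjusted p 0.00930), and its call was lost without vehicle 1 (0.129) and without octanoate 1 (0.0656).

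The genes of the proteins that cathepsin A protects showed no such calls. GLB1, the beta-galactosidase gene, had octanoate over vehicle at a log2 of 0.05 (SE 0.06, limma adjusted p 0.604), and its groups overlapped. NEU1, the neuraminidase gene, was at -0.11 (SE 0.07, limma adjusted p 0.242). PSAP, the source of the saposins that help enzymes reach sphingolipids, had 45267 and 40707 normalised counts in vehicle and 47361 and 45961 in octanoate. Its difference of 0.12 missed the threshold (SE 0.06, limma adjusted p 0.156). The other hydrolases without a call ran from -0.17 for the alpha-galactosidase gene GLA to 0.15 for the beta-glucuronidase gene GUSB. They were CTSB (0.15), CTSK (0.06), ASAH1 (-0.10), GAA (-0.11) and HEXA (-0.13), encoding cathepsins B and K, acid ceramidase, acid alpha-glucosidase and the alpha chain of hexosaminidase. Cathepsin genes thus had calls in both directions, CTSL higher and CTSA, CTSD and CTSZ lower.

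The membrane protein genes held the largest fall. GPNMB encodes a glycoprotein of melanosomes and lysosomes (chromosome 7, 23235967 to 23275108, plus strand). Its normalised counts were 7403 and 6675 in vehicle and 4343 and 4353 in octanoate. The octanoate libraries were almost equal and far below the vehicle libraries, and GPNMB fell by 38.2% (log2 difference -0.69, SE 0.06, limma adjusted p 4.07e-09). LAMP1, a main glycoprotein of the lysosomal membrane, had 20115 and 17821 normalised counts in vehicle and 16709 and 16305 in octanoate (log2 difference -0.20, SE 0.06, limma adjusted p 0.0162). Its call was lost without vehicle 1, where the log2 difference was -0.11 (limma adjusted p 0.259), and without octanoate 2 (0.0990).

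Its relative LAMP2, whose protein is also needed for autophagosomes to mature, had 8601 and 8375 normalised counts in vehicle and 9109 and 9061 in octanoate. That difference of 0.10 pointed the other way and missed the threshold (SE 0.06, limma adjusted p 0.197). CD63, a tetraspanin gene, was the most abundant of this group, with 37003 and 33590 normalised counts in vehicle and 34003 and 33038 in octanoate. The groups of CD63 overlapped (log2 difference -0.07, SE 0.06, limma adjusted p 0.401). MCOLN1, which encodes the lysosomal calcium channel mucolipin-1, had a difference of -0.19 that missed the threshold (SE 0.07, limma adjusted p 0.0607). The median of the 5 membrane genes was -0.19, and it was -0.11 without vehicle 1 and -0.12 without octanoate 2.

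All 6 proton pump genes were lower in both octanoate libraries than in both vehicle libraries, and 4 of them (66.7%) were called lower. Over all tested genes 30.5% lay below in this way and 13.7% were called lower, and over those with a mean of 1000 or more 38.2% and 20.0%. The median log2 difference was -0.25. ATP6V0D1, a subunit of the membrane sector, had 4946 and 4670 normalised counts in vehicle and 3789 and 3765 in octanoate, a fall of 21.4% (log2 difference -0.35, SE 0.06, limma adjusted p 7.93e-05). ATP6AP1, an accessory protein of pump assembly, had 6764 and 6127 in vehicle and 5282 and 5038 in octanoate (log2 difference -0.32, SE 0.06, limma adjusted p 0.000294). ATP6V0D1 and ATP6AP1 fell by about the same factor, but ATP6V0E1, also of the membrane sector, had a log2 difference of only -0.09.

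In the cytosolic sector, ATP6V1H, a subunit that regulates the pump, had 3738 and 3486 normalised counts in vehicle and 3000.3 and 2954 in octanoate (log2 difference -0.28, SE 0.06, limma adjusted p 0.00132). ATP6V1A, the catalytic subunit and the most abundant pump gene of the 6, had 10311 and 10107 in vehicle and 8564 and 9035 in octanoate (log2 difference -0.21, SE 0.06, limma adjusted p 0.00549). Its call was lost without octanoate 1 (limma adjusted p 0.0935). The remaining subunit genes missed the threshold: ATP6V1B2 had a log2 difference of -0.14 (SE 0.06) and ATP6V0E1, of the membrane sector, one of -0.09 (SE 0.06).

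Of the 10 autophagy genes, 3 were called higher and none lower. Among the abundant genes 18.1% were called higher and 20.0% lower, and over all tested genes 16.2% and 13.7%. The median log2 difference of the autophagy genes was 0.09, or 0.031 without vehicle 2. SQSTM1 encodes p62, a receptor that links ubiquitinated cargo to ATG8 proteins (chromosome 5, 179806398 to 179838078, plus strand). It had 17099 and 16405 normalised counts in vehicle and 22791 and 21226 in octanoate. Both octanoate libraries were higher, and SQSTM1 rose by 31.4% (log2 difference 0.39, SE 0.06, limma adjusted p 1.16e-05). Other genes, chiefly MRNIP, cover 22.0% of its exon bases, and stretches of its transcripts match those of 292 genes at 95% identity or more, so its count is uncertain.

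GABARAPL1, an ATG8 gene of the GABARAP family, had 3359 and 3285 normalised counts in vehicle and 4463 and 4264 in octanoate. It rose by 31.4% as well (log2 difference 0.39, SE 0.06, limma adjusted p 1.84e-05). The other ATG8 members did not share a call: MAP1LC3B, the LC3B gene, was at a log2 of 0.07 (SE 0.06, limma adjusted p 0.401) and GABARAPL2 at -0.07 (SE 0.06, limma adjusted p 0.435). MAP1LC3B shares 601 bases at 97.3% identity with MAP1LC3B2, so its count is uncertain. GABARAPL1 shares 354 bases at 95.5% with GABARAPL3, which makes its count uncertain as well.

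WIPI1 encodes a protein that binds the lipid PI3P on forming autophagosomes. It had 1157 and 1014 normalised counts in vehicle and 1514 and 1522 in octanoate (log2 difference 0.49, SE 0.08, limma adjusted p 2.69e-05). WIPI1 lies at chromosome 17, 68420948 to 68457513, minus strand, and 28.1% of its exon bases are covered by other genes, chiefly the sulfatase gene ARSG on the opposite strand. ARSG rose too, from 162 and 159 normalised counts to 303 and 325 (log2 difference 0.96, SE 0.12, limma adjusted p 1.43e-06). Whether counting used the strand is not given in the sources used here, so reads of these genes cannot be told apart where they overlap.

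The other 5 autophagy members were not called. ULK1, the initiating kinase, had a log2 difference of -0.09, BECN1, the Beclin 1 gene of the lipid kinase complex, one of -0.06, and its partner UVRAG one of 0.10. ATG5 (-0.06) and ATG7 (0.12), which act in the conjugation of ATG8 proteins to lipid, missed the threshold as well. The SE of each of these 5 was 0.06.

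**Figure D2:**
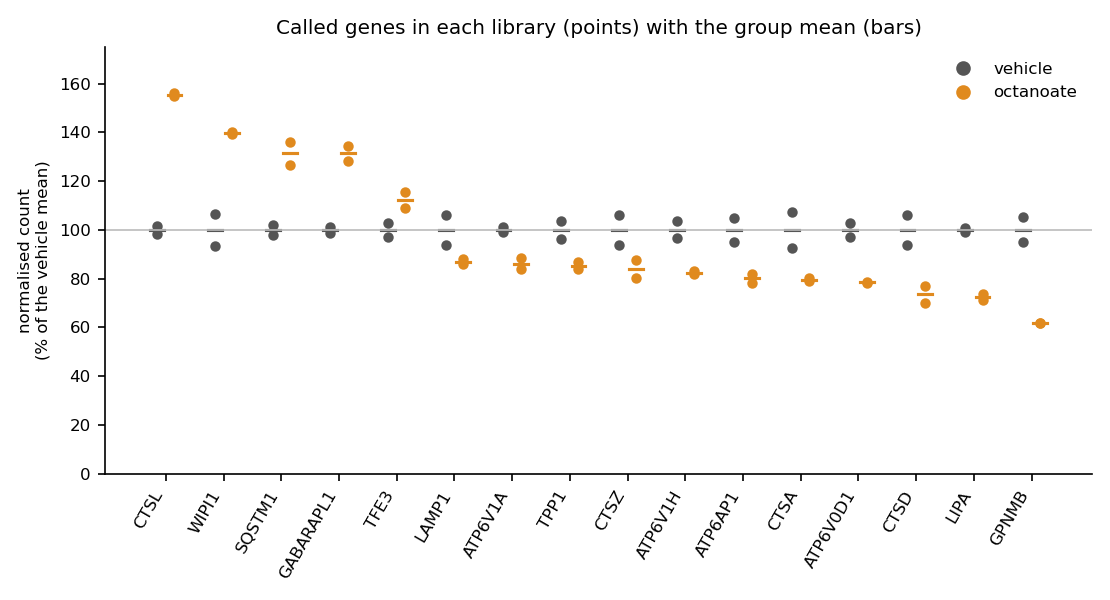
Normalised count of each called gene in each library (points) as a percentage of its mean in the vehicle libraries (y axis), with the group means as bars. For each of the 16 genes the 2 octanoate libraries lie on the same side of both vehicle libraries, from GPNMB, which fell by 38.2%, to CTSL, which rose by 55.4%.

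The members were then set against promoter content. All 8 members with CACGTG in the window had a negative log2 difference, from -0.44 for CTSD to -0.07 for CD63, with a median of -0.19, and 4 of them (CTSA, CTSD, LAMP1 and ATP6V0D1) were called lower. Of the 20 members with a window but no CACGTG, 10 had a negative difference, 5 were called higher and 5 lower, and the median was -0.0038. The 5 members called higher (TFE3, CTSL, SQSTM1, GABARAPL1 and WIPI1) were all among these 20, as were GPNMB and LIPA. The 8 with the core were hydrolase, membrane protein or proton pump genes. Every autophagy gene with a window was among the 20, so this split in part follows role. Across all tested genes with a window, the same split by CACGTG was small: 20.9% of 1098 genes with the core were called lower and 15.5% higher, against 17.1% and 18.8% of the 10033 without it. The medians were -0.0255 and -0.0081, and 54.8% and 51.4% of these genes had a negative difference. Among those with a mean of 1000 or more, 59.6% with the core and 55.3% without it did. The 8-letter TCACGTGA divided the genes further: 63 of 201 (31.3%) were called lower and 7.96% higher. Of the 10930 without these letters 17.2% were called lower and 18.7% higher. The medians were -0.09 and -0.0082. Restricted to genes with a mean of 1000 or more, the shares called lower were 24.0% with CACGTG and 19.8% without, and 33.8% with TCACGTGA and 20.0% without. Corrected for GC content and length, and whatever the mean of the gene, 43.8% of 201 genes with TCACGTGA and 28.0% of 10914 without it were called lower. The shares to set beside these are the uncorrected 31.3% and 17.2%. These are counts over genes of the same 4 libraries and carry no test. They were made after the members' values were seen.

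Further genes of the same pathways were counted from 8 lists. In these, 57 of 171 tested genes (33.3%) were called, against 29.9% of all tested genes and 38.1% of the abundant ones. Of them 19 were higher (11.1%) and 38 lower (22.2%). The shares over all tested genes were 16.2% and 13.7%, and over the abundant ones 18.1% and 20.0%. The other 37 hydrolases had 6 calls higher (16.2%) and 8 lower (21.6%), close to the shares of the abundant genes. CTSC, the gene of the dipeptidyl peptidase cathepsin C, rose by 39.1%, from 22452 and 21282 normalised counts to 30072 and 30751. ACP5, the tartrate-resistant acid phosphatase gene, fell by 34.7%. The hydrolases of this list moved in both directions, as the member hydrolases did, and without vehicle 1 the list had 5 calls lower.

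Of 23 other lysosomal membrane genes, 2 were called higher (8.70%) and 4 lower (17.4%). The sialic acid transporter gene SLC17A5 had a log2 difference of 0.50 and NPC1, which exports cholesterol from lysosomes, one of 0.38. The cystine transporter gene CTNS had one of -0.36 and LAPTM4A one of -0.19, whose call was lost without vehicle 1 (limma adjusted p 0.103) and without octanoate 2 (0.153). Leaving out either of these libraries left 1 membrane gene of this list called lower. Of the 15 other proton pump genes tested, 11 had a negative difference but only ATP6V1C1 (-0.42) and ATP6V0A1 (-0.23) were called lower, and ATP6V1E2 was called higher (0.40). A negative difference was also found in 9979 of all 20250 tested genes and in 4953 of the 9003 abundant ones. The share of pump genes called lower was 13.3% outside the 6 members, against 13.7% of all tested genes and 20.0% of the abundant ones. Of these 15 genes 11 had a mean of at least 1000, while ATP6V0C, at a mean of 10.5, was near the floor.

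The sorting route for new hydrolases had no call higher and 4 of 9 lower, and 2 lower without vehicle 1, vehicle 2 or octanoate 2. The 4 calls are 44.4% of this short list, against 20.0% of the abundant genes. The sorting receptor gene SORT1 fell by 37.3%, from 4087 and 3755 normalised counts to 2432 and 2484 (log2 difference -0.67, SE 0.06, limma adjusted p 1.25e-08). NAGPA, whose product uncovers the mannose 6-phosphate tag, had a log2 difference of -0.45. The receptors for that tag were not called, with log2 differences of -0.10 for M6PR and 0.0026 for IGF2R.

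Core autophagy genes outside the members had 4 calls higher and 6 lower of 30, the latter 2 without vehicle 1 or octanoate 2 and 3 without octanoate 1. The 4 and 6 calls are 13.3% and 20.0% of the list, against 18.1% and 20.0% of the abundant genes. ATG12, the ubiquitin-like protein that is joined to ATG5, more than doubled: it had 4782 and 4825 normalised counts in vehicle and 10872 and 11102 in octanoate (log2 difference 1.19, SE 0.06, limma adjusted p 4.48e-14). VMP1, an ER protein needed to form autophagosomes, rose by 52.0%. MAP1LC3C, an LC3 gene at 114 and 83.3 normalised counts in vehicle, had 43.3 and 48.8 in octanoate (log2 difference -1.07), and ATG14 had a log2 difference of -0.28. Among 14 cargo receptors 2 were called higher (14.3%) and 3 lower (21.4%), again close to the abundant genes. CCPG1, a receptor for the ER, had a log2 difference of 0.36 and CALCOCO2 one of 0.23, whereas the mitochondrial receptor BNIP3 had one of -0.26 and TEX264 one of -0.23. Other genes, chiefly DNAAF4-CCPG1, cover 39.8% of the exon bases of CCPG1, which makes its count uncertain. The call of CALCOCO2 was lost without vehicle 2 (limma adjusted p 0.0830) and without octanoate 2 (0.0651). Those of BNIP3 (limma adjusted p 0.0667 and 0.117) and TEX264 (0.206 and 0.0702) were lost without vehicle 1 and without octanoate 2.

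Of 16 genes of fusion with lysosomes, 3 were called lower (18.8%, against 20.0% of the abundant genes). The tethering complex genes VPS18 (-0.32) and VPS11 (-0.31, both as log2 differences) were among them. Among 27 genes of the MiT/TFE family and of mTORC1 control, the kinase complex that keeps TFEB and TFE3 in the cytoplasm, 3 were called higher and 8 lower, or 5 lower without vehicle 1. The 3 and 8 calls are 11.1% and 29.6% of the list, against 18.1% and 20.0% of the abundant genes. The stress-induced mTORC1 inhibitors SESN2 (log2 difference 0.57) and DDIT4 (0.44) rose. Other genes, chiefly DDIT4-AS1, cover 41.2% of the exon bases of DDIT4, so its count is uncertain. SESN3, a relative of SESN2, went the other way, from 1195 and 1174 normalised counts to 634 and 666 (log2 difference -0.86, SE 0.08, limma adjusted p 7.29e-09).

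**Figure D3:**
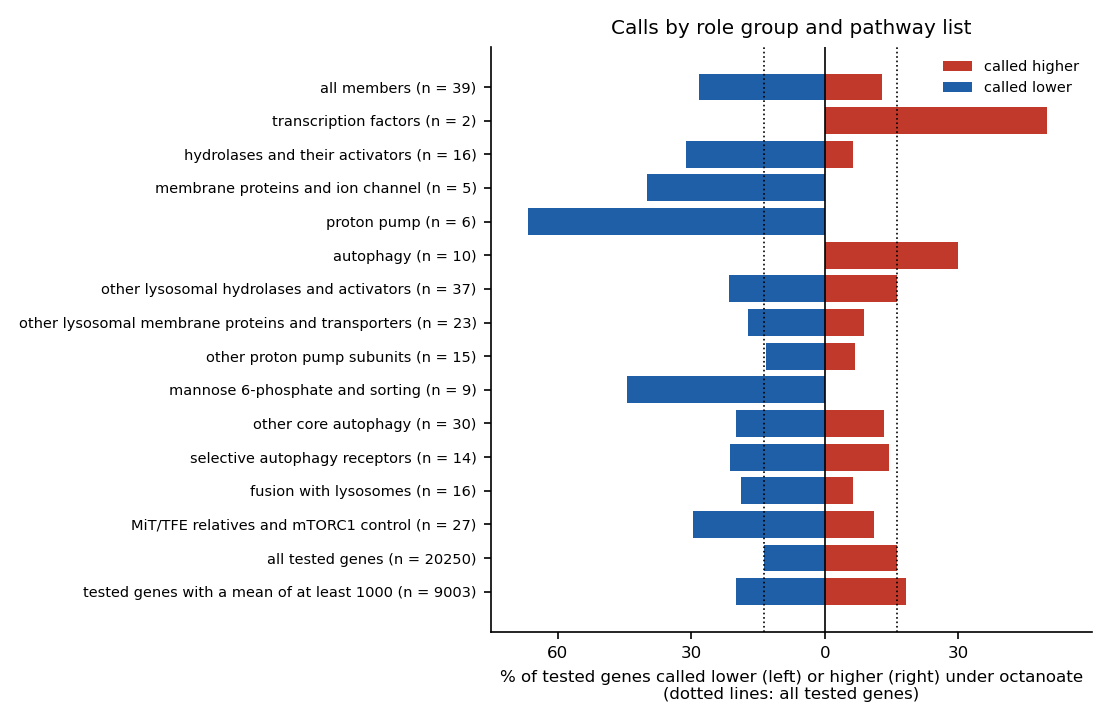
Percentage of the tested genes called lower (left bars) and higher (right bars) in the members, their role groups and the other pathway lists, with the number tested in parentheses and dotted lines at the values of all tested genes (13.7% and 16.2%). The proton pump members (66.7%) and the sorting list (44.4%) had the largest shares called lower, in groups of 6 and 9 genes.

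Which of the 39 were called changed with the fit. Without an intensity trend in the variance prior, CTSL alone remained higher and LIPA and GPNMB alone remained lower. That fit called 1095 of all 20250 genes higher and 530 lower. With every gene that had a read in the fit, 4 members were called higher and 5 lower, beside 1597 and 998 of all 43449 genes. The calls also changed with each library left out. Without vehicle 1 the median log2 difference of the hydrolases was -0.06 instead of -0.11. That over all tested genes was 0.0179 instead of 0.0050. No called member changed direction in any of the 17 alternative fits.

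**Figure D4:**
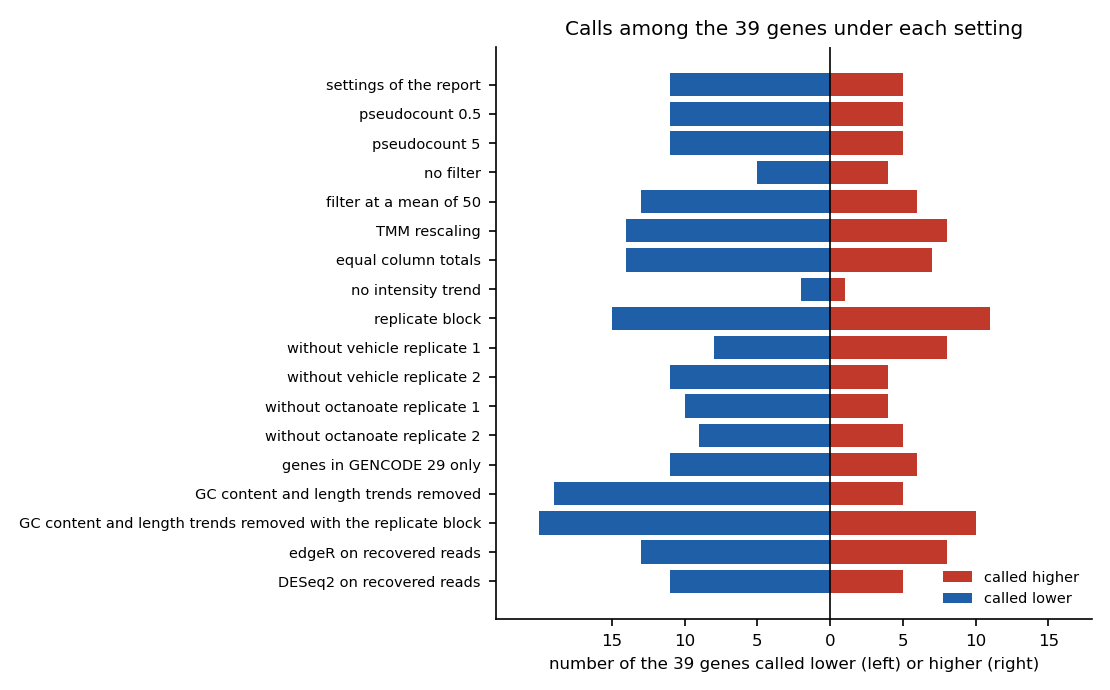
Number of the 39 genes called lower (left bars) and higher (right bars) under the settings of the report and under each alternative. The count ranged from 1 higher and 2 lower without an intensity trend to 10 higher and 20 lower with GC content and length trends removed and the replicate number as a block. Calls over all genes ranged as well: the former fit called 1625 of 20250 genes and the latter 8150 of 15141.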

How the data were processed

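RNA of 4 A375 libraries (2 vehicle, 2 octanoate) was analysed from 2 tables. The submitters' processing notes name bcl2fastq 2.17, Trim Galore, STAR 2.4, Picard, HTSeq 0.9.1, DESeq2 and hg38, without roles or settings. The deposited signal per gene is a read count divided by 1 size factor per library, made by the authors with DESeq2 per the file's name. All values (100%) were whole multiples of a library's smallest positive value, within 0.01, and whole reads were recovered by division. The authors' deposited comparison gives log2 fold changes, a test score and p-values, and was used only beside calls made here.

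Normalised counts plus 1 were log2-transformed, and 20250 genes with a mean of 10 or more were fitted by limma 3.58.1 (R 4.3.3), two-sided, with an intensity trend and no block. The variance prior, taken from genes of similar level, had 21.15 degrees of freedom. With 2 libraries per group it therefore set most of each SE. Members, lists and tests were chosen with earlier results of these data known. Named in full were TFEB, TFE3, up to 4 called genes per role and direction by p, and the most abundant of each role. Of each pathway list up to 2 per direction were named, and M6PR and IGF2R were added after their values were seen. Some genes that this rule takes are not reported here. KIAA0226 and CASTOR1 are listed as RUBCN and GATSL3. Positions, exon overlaps, GC content and lengths come from GENCODE 29 (GRCh38), which held all 39 members and 74.8% of tested genes by name. Shared sequence was searched with blastn 2.17.0 (at least 95% identity over at least 100 bases).

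Counts were simulated for this comparison with 200 changed genes, and 19926 genes were tested. Of those given a log2 change of 0.5, 60.6% were recovered, and 8 of all 160 calls were false. In the data a far larger share of tested genes was called (29.9%), so these rates do not carry over to the calls made here. The rates were also not split by gene level, and most members are abundant. An exact permutation test of 2 against 2 libraries cannot give a p under 0.333. Alternatives were other pseudocounts (0.5, 5), filters (none, 50), scalings (TMM, equal totals), no trend, the replicate block, each library left out (the lone library is then assumed to vary as the other group does), edgeR 4.0.16 and DESeq2 1.42.0 on recovered reads, and GC content and length correction.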

Additional observations from a re-analysis of the deposited data

How the results depend on the processing

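The fit called 6048 of 20250 genes, 2595 of 43449 without a filter and 1625 of 20250 without an intensity trend. Members called higher numbered 5, but 8 with TMM rescaling or edgeR, 1 without an intensity trend, 11 with the replicate block, and 10 with that block and GC content and length trends removed. Over all genes the calls higher moved too, from 3271 to 3434 with TMM rescaling and 3466 with edgeR. They numbered 1095 without an intensity trend, 4307 with the block, and 3453 of 15141 with the block and that correction. Members called lower numbered 11, but 5 without a filter, 2 without an intensity trend, 19 with GC content and length trends removed, and 20 with that correction and the replicate block. Over all genes the calls lower went from 2777 to 998 without a filter and 530 without an intensity trend. Of 15141 genes they were 4003 with that correction and 4697 with the block as well. With each library left out, 4 to 8 were called higher and 8 to 11 lower, and the medians ran from -0.22 to -0.11 for membrane proteins, from -0.17 to -0.06 for hydrolases, from 0.031 to 0.13 for autophagy and from 0.19 to 0.29 for the transcription factors. With GC content and length trends removed, with or without the block, the medians were 0.19 for the transcription factors and -0.22 for membrane proteins. GLB1 ran from -0.0001 (without vehicle 2, limma adjusted p 0.9998) to 0.0951. The cause of these shifts was not tested. The replicate numbers pair nothing in the labels: deviations of same-numbered libraries correlated at 0.126 over 20250 genes with 2 pairs, and the block called 8376 genes. DESeq2 on recovered reads called 4180 genes and the same number of members in each direction, 5 and 11. TFEB was called in 6 of 17 alternatives (limma adjusted p 0.0215 with the block), its adjusted p running from 0.0215 to 0.286.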

Other observations

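Several lysosome and autophagy genes outside the 39 were listed at very low levels, and exons of other genes cover most of their own exon bases in GENCODE 29. ATP6V0C, the proteolipid ring of the proton pump, had 4.33 to 16.4 normalised counts, with 72.1% of its exon bases covered. GABARAP had 26.0 to 40.7 normalised counts with 55.7% covered, against 3285 to 4463 for GABARAPL1 with 8.1% covered. CD68, a lysosomal membrane gene, had 1.08 to 1.96 with 85.8% covered. Coverage by other genes did not go with a low level in every case: PPT2, a thioesterase gene with 56.0% covered, had a mean of 1225 and CTSD, with 52.7% covered, one of 2917. How reads in shared exons were counted is not given in the sources used here, and the part of this overlap in the low values was not tested.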
